A study of Mus musculus with 6 samples.

Results

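The genes described here are 10 cytokine and receptor genes of the interleukin-6 (IL-6), IL-10 and IL-12 families, measured in mouse macrophages exposed to medium from lung carcinoma cells. They were chosen by symbol, as the rows of the deposited gene table named Il6, Osm, Lif, Il10, Il12b and Il23a for ligands and Il6ra, Il6st, Il10ra and Il10rb for receptors, which gave 10 of 55421 rows. Wild-type bone marrow cells had been grown into macrophages with macrophage colony-stimulating factor (M-CSF) at 20 ng/mL in RPMI-1640 medium with 10% serum. The conditioned-medium wells (n = 3) were in 50% LL-2 conditioned medium, an equal-volume mixture with that culture medium, for 24 h, LL-2 being a Lewis lung carcinoma line. The untreated wells (n = 3) stayed in the culture medium alone, and RNA from all 6 wells was sequenced. All wells were wild type and grown with M-CSF, whose final concentration in the mixed medium was not stated. The strain, age and number of animals were not given in the sources used here. The effect of tumour cell products cannot be told apart from that of a smaller share of fresh medium.

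The families are defined by how their receptors are built. IL-6, oncostatin M and leukaemia inhibitory factor (LIF) each signal through the shared chain gp130, the product of Il6st. It is joined by a further chain, which for IL-6 is the IL-6 receptor alpha chain from Il6ra. IL-10 binds the chain encoded by Il10ra and recruits that encoded by Il10rb, which also serves IL-22 and the lambda interferons. IL-12 and IL-23 share the p40 subunit, the product of Il12b, and IL-23 adds the p19 subunit from Il23a. These receptors act through Janus kinases (JAK) and STAT transcription factors, chiefly STAT3 for IL-6 and IL-10 and STAT4 for IL-12. Macrophages are a main source of IL-12 and IL-10 after microbial stimuli, and IL-10 restrains the production of IL-6 and IL-12 in the same cells.

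Libraries held 28447825 to 30040682 counts in conditioned medium and 24179548 to 25916709 counts in untreated wells. All 8 macrophage markers were detected, of which 3 rose and 3 fell, and the macrophage lysozyme gene Lyz2 led them in every library. Csf1r, the M-CSF receptor gene, averaged 5720 ± 270.4 CPM (counts scaled to a common library total) in conditioned medium and 4085 ± 480 CPM in untreated wells (SD, n = 3 each), and Adgre1, which encodes F4/80, averaged 1989 ± 52.0 CPM in conditioned medium and 2603 ± 121 CPM in untreated wells. CPM here and below were scaled by the trimmed mean of M-values (TMM), and values by well follow the order of the replicate numbers. In such bulk samples, fewer cells of a type and less RNA per cell cannot be told apart.

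Of the 10 genes, 8 had enough counts to be tested, 2 rose (Il6ra and Osm), 3 fell (Il10, Il10rb and Il12b) and 3 did not pass (Il6st, Lif and Il10ra). The test was edgeR's quasi-likelihood test with Benjamini-Hochberg adjustment over 13853 genes and a threshold of 0.05, which every adjusted p below comes from unless another is named. That test called 27.9% of all tested genes, 12.6% as higher and 15.2% as lower. The counts in every gene list below stand against these shares. With the replicate number as a block, 36.3% of all tested genes were called. Of the calls, 45.3% were higher, against 60.8% with libraries scaled by the total count alone. The median log2 fold change, conditioned medium minus untreated, was 0.10 over the 8 genes and 0.01 over all tested genes. By family, 2 of the 4 tested IL-6 family genes rose, 2 of the 3 IL-10 family genes fell, and the tested IL-12 family gene fell. The groups did not overlap for 6 of the 8 genes, against 42.8% of all tested genes.

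**Figure D1:**
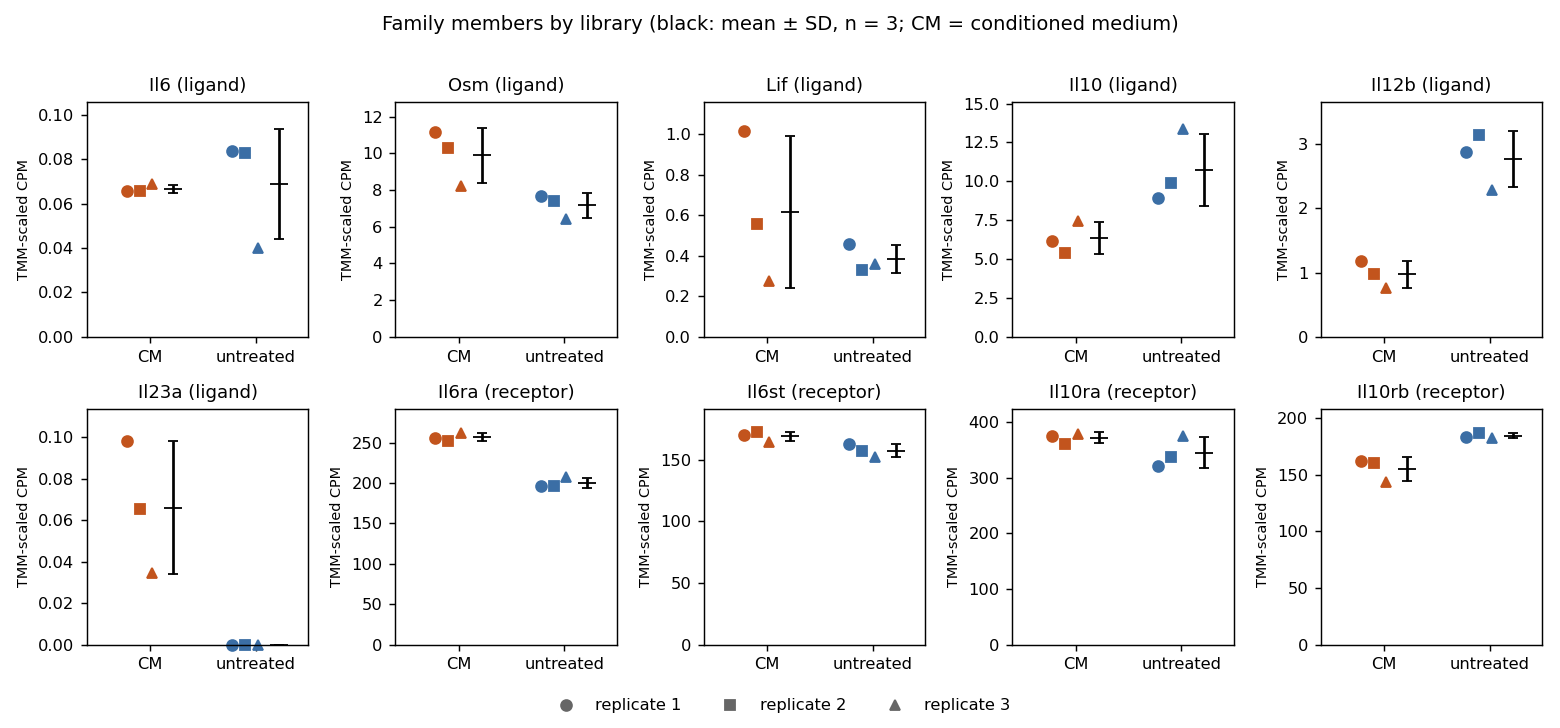
TMM-scaled CPM of the 10 genes in each library, with conditioned medium (CM) left of untreated and the scale of each panel starting at 0; points are libraries and black marks the mean ± SD. Il12b and Il10 lie lower in all 3 conditioned-medium libraries, Osm and Il6ra lie higher, and Il6 and Il23a stay at or below 0.1 CPM.

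Levels were compared between genes per length, as RPKM, which is the scaled CPM divided by the summed exon length of the gene in kilobases. The 4 receptor genes stood above the 6 ligand genes in both groups. In conditioned medium Il10ra led with 106 ± 2.82 RPKM, followed by Il10rb with 40.8 ± 2.73, Il6ra with 29.7 ± 0.551 and Il6st with 15.2 ± 0.343 RPKM (SD, n = 3). In untreated wells the order of these receptors was the same, at 98.5 ± 7.95 RPKM for Il10ra, 48.4 ± 0.563 for Il10rb, 23.2 ± 0.724 for Il6ra and 14.2 ± 0.466 for Il6st. Among ligands, Il10 and Osm were the most abundant, and their order depended on the group. Il10 had 4.71, 4.14 and 5.70 RPKM in conditioned medium against 6.80, 7.56 and 10.2 RPKM in untreated wells. Osm had 4.91, 4.54 and 3.62 RPKM in conditioned medium against 3.39, 3.25 and 2.82 RPKM in untreated wells. Il10 therefore lay above Osm in every untreated library, while their ranges overlapped in conditioned medium. Il12b followed with 0.495 ± 0.108 RPKM in conditioned medium and 1.41 ± 0.223 RPKM in untreated wells, then Lif with 0.142 ± 0.0860 RPKM in conditioned medium and 0.0882 ± 0.0156 RPKM in untreated wells. Il6 and Il23a were last, both below 0.03 RPKM on average, and did not differ from each other beyond counting error in conditioned medium.

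Il12b, the p40 subunit gene (ENSMUSG00000004296, chromosome 11, 44400063 to 44414033, GRCm38), fell the most of the 8. It had 36, 30 and 22 counts in conditioned medium, or 1.18, 0.985 and 0.757 CPM, against 69, 76 and 57 counts in untreated wells, or 2.89, 3.14 and 2.29 CPM. All 3 conditioned-medium libraries lay below all 3 untreated libraries, and the library numbered 3 was the lowest of each group. Its level was 2.83-fold lower, with a log2 fold change of -1.499 (adjusted p = 0.00145, SE 0.24), a change larger than that of 98.2% of tested genes. A change beyond 1.5-fold was called by edgeR's glmTreat for Il12b alone among the 8 genes (adjusted p = 0.0241), against 3.49% of all tested genes. Leaving out conditioned-medium replicate 2 ended that call (adjusted p = 0.0821), as did leaving out conditioned-medium replicate 3 (0.0590), untreated replicate 1 (0.0927) or untreated replicate 2 (0.117), while the fall itself kept its side of the threshold without each library. Dendritic cells also transcribe Il12b, and 2 of 5 tested dendritic cell markers fell, with summed levels of the 6 listed markers of 8.95 to 14.4 CPM in conditioned medium and 18.3 to 26.1 CPM in untreated wells. Among them Ccr7, which mature dendritic cells use to reach lymph nodes, had a log2 fold change of -0.99 (adjusted p = 0.00138) and Flt3, a growth factor receptor gene of dendritic cells, one of -0.98 (adjusted p = 0.0387). The number that fell was 1 without conditioned-medium replicate 2, conditioned-medium replicate 3, untreated replicate 1 or untreated replicate 2, and also by limma-voom. It was 3 without untreated replicate 3, without both libraries numbered 3, with the replicate block, at equal depth, with no low-count filter and by DESeq2. The part of dendritic cells in the Il12b result was not tested.

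Il10 (ENSMUSG00000016529, chromosome 1, 131019845 to 131024974), the anti-inflammatory cytokine gene, fell as well. It had 6.17, 5.42 and 7.47 CPM in conditioned medium against 8.91, 9.91 and 13.4 CPM in untreated wells. The groups did not overlap, and the library numbered 3 was the highest of each. The log2 fold change was -0.76 (adjusted p = 0.00953, SE 0.17), and without any single library the adjusted p stayed at or below 0.0375. Mast cells and B cells can also transcribe Il10. All 5 tested mast cell and basophil markers fell, with a median log2 fold change of -1.22 and summed levels of the 6 listed genes of 4.78 to 9.10 CPM in conditioned medium and 13.5 to 16.5 CPM in untreated wells. The number of these markers that fell was 2 without conditioned-medium replicate 1, 3 without untreated replicate 1 and 1 without untreated replicate 2. Of 5 B cell markers 1 fell, Ms4a1 (log2 fold change -0.89, adjusted p = 0.0219), a call that was absent without conditioned-medium replicate 1, untreated replicate 1, untreated replicate 3 or both libraries numbered 3. The summed levels of these B cell markers overlapped, at 10.9 to 16.7 CPM in conditioned medium and 14.2 to 17.3 CPM in untreated wells. The part of these cells in the Il10 result was not tested.

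Osm (ENSMUSG00000058755, chromosome 11, 4236420 to 4241026), which encodes oncostatin M, was the ligand gene that rose. It had 11.2, 10.3 and 8.23 CPM in conditioned medium against 7.69, 7.39 and 6.42 CPM in untreated wells. All conditioned-medium libraries lay above all untreated ones, the nearest by a small margin, and the library numbered 3 was the lowest of each group. Its level was 1.38-fold higher, with a log2 fold change of 0.47 (adjusted p = 0.0278, SE 0.13). With the replicate block the adjusted p was 0.00181, and without both libraries numbered 3 it was 0.00620. Without the block the call was lost when single libraries were left out: the adjusted p was 0.120 when conditioned-medium replicate 1 was left out, 0.0888 for conditioned-medium replicate 2, 0.0681 for untreated replicate 2 and 0.0795 for untreated replicate 3, the direction being the same each time. Neutrophils are another source of oncostatin M. Of 8 neutrophil markers 1 fell, Camp (log2 fold change -0.90, adjusted p = 0.00825), and the others did not pass, but with the replicate number as a block 5 rose and 2 fell. Without conditioned-medium replicate 3, 4 of them rose, without untreated replicate 3, 2 rose, and without untreated replicate 2, 2 fell. Without both libraries numbered 3, 6 of them rose. Their summed levels were 660 to 751 CPM in conditioned medium and 557 to 716 CPM in untreated wells, and their part in the Osm result was not tested.

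Lif (ENSMUSG00000034394, chromosome 11, 4257557 to 4272514), the leukaemia inhibitory factor gene and a close neighbour of Osm, was scarce and spread widely. It had 31, 17 and 8 counts in conditioned medium, or 1.02, 0.558 and 0.275 CPM, against 11, 8 and 9 counts in untreated wells, or 0.460, 0.330 and 0.361 CPM. The groups overlapped, since conditioned-medium replicate 3 was the lowest of all 6 libraries and conditioned-medium replicate 1 the highest. The log2 fold change was 0.69 (adjusted p = 0.338, SE 0.48), and 0.12 without conditioned-medium replicate 1 against 1.03 without conditioned-medium replicate 3. Replicate 1 also had the highest fibroblast signal of its group. The summed level of 5 fibroblast markers was 76.7, 27.9 and 25.7 CPM in conditioned medium and 56.4, 13.0 and 27.1 CPM in untreated wells, for replicates 1, 2 and 3. None of the 4 tested fibroblast markers passed, the smallest adjusted p being 0.182 for Pdgfra, and with the replicate block 2 rose. The part of fibroblasts in the Lif values was not tested.

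**Figure D2:**
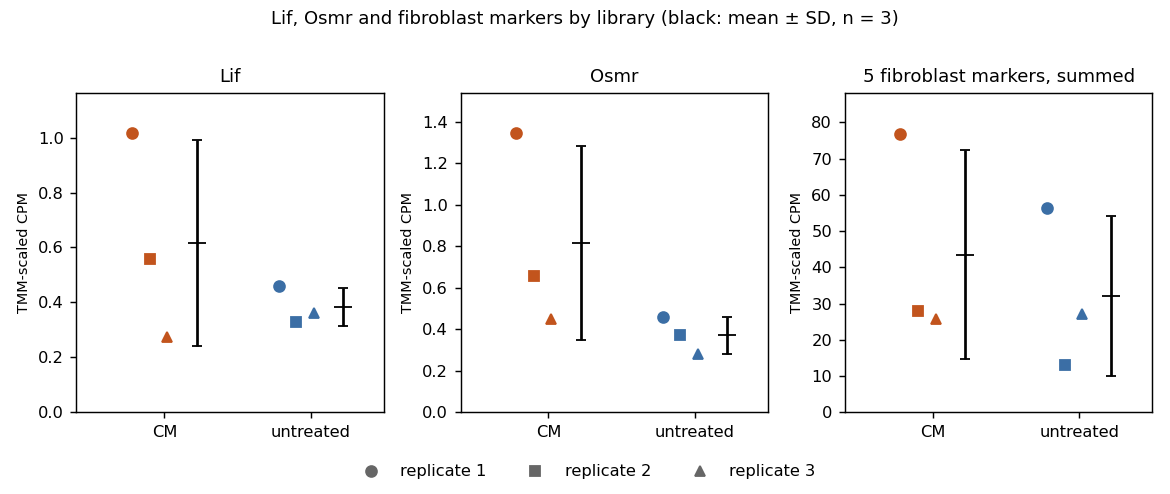
TMM-scaled CPM of Lif, of the oncostatin M receptor gene Osmr and of 5 fibroblast markers summed, by library, with conditioned medium (CM) left of untreated and black marks for the mean ± SD. Replicate 1 (circles) is the highest point of each group in each panel, and the groups overlap in each panel, only slightly for Osmr.

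Il6 and Il23a were close to the limit of detection and were not tested. Il6 (ENSMUSG00000025746, chromosome 5, 30013114 to 30019981), the IL-6 gene, had 2, 2 and 2 counts in conditioned medium against 2, 2 and 1 in untreated wells. Over the groups these were 6 of 88290176 counts in conditioned medium and 5 of 74643348 in untreated wells, a ratio of 1.01 with an exact 95% interval of 0.258 to 4.20. A difference smaller than about 4-fold in either direction was thus not detectable at this depth. Il23a (ENSMUSG00000025383, chromosome 10, 128296139 to 128298752), the p19 subunit gene of IL-23, had 3, 2 and 1 counts in conditioned medium and 0 counts in each untreated well. A count of 0 over the untreated group allows up to 3 counts, or 0.0402 CPM of the raw total. Its 6 counts in conditioned medium lay 1.69-fold above that floor, as a point value and not as a lower bound. The exact 95% interval of those 6 counts, 0.0249 to 0.148 CPM, reaches below that floor, so a difference is not shown beyond counting error. Without the filter on low counts its adjusted p was 0.212, and that of Il6 was 0.992. These intervals and floors cover counting error only.

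The promoters show the sequence around the start of genes that rose, fell or stayed silent. The RefSeq promoter table (GRCm38.p6) held 250 bases before and 50 after the start for 5 of the 10 genes. The windows of Il12b, which fell, Il6ra, which rose, and Il6, which was barely transcribed, are printed with that of Socs3, the feedback inhibitor gene of these receptors described below. Capitals mark matches, on either strand, to the STAT motif TTCNNNGAA, the NF-kB motif (GGG, any 3 bases, then TTCC), the AP-1 motif TGANTCA or the C/EBP motif TTNNGCAA, where N is any base, and no match overlaps another. The windows are chr11:44399813-44400112 (plus strand), chr3:89913147-89913446 (minus strand), chr5:30012864-30013163 (plus strand) and chr11:117969317-117969616 (minus strand).
Il12b: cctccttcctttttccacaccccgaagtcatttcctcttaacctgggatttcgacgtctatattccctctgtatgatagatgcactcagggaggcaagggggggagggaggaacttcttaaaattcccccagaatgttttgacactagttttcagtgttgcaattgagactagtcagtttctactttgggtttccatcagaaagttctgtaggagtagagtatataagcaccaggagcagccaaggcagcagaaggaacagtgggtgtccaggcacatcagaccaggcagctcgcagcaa
Il6ra: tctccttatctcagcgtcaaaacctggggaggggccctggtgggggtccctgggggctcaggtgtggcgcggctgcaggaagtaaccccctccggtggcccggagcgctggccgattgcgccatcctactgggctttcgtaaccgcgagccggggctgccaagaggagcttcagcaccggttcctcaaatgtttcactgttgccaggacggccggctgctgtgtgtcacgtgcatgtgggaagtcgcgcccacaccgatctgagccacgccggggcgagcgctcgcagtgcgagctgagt
Il6: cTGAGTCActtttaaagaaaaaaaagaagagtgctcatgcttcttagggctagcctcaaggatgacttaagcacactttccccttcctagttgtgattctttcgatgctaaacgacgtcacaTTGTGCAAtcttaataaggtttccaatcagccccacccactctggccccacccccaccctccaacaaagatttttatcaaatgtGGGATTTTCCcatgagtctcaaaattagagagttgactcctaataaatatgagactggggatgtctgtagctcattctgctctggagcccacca
Socs3: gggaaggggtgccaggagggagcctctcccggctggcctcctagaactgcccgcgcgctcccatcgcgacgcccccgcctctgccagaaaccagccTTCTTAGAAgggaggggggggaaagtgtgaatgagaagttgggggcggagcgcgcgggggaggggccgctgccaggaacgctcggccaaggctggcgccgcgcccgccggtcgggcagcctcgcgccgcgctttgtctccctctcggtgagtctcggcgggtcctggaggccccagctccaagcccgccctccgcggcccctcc
The Il6 window held an AP-1 match from -249, a C/EBP match from -128 and an NF-kB match from -44 relative to the start. The Socs3 window held a STAT match from -154, and the Il12b and Il6ra windows held none of these letters. Of the 32851 promoters in the table, 8.30% held the STAT motif, 5.56% the NF-kB motif, 7.81% the AP-1 motif and 10.8% the C/EBP motif. The matches are descriptions of letters and not of bound sites. Sites that differ from these letters were not searched for, so a window without a match may still hold such sites.

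Among receptors, Il6ra (ENSMUSG00000027947, chromosome 3, 89864059 to 89913196), the gene of the chain that binds IL-6, rose. It had 256, 252 and 262 CPM in conditioned medium against 197, 197 and 208 CPM in untreated wells. The groups were far apart for their spread, with a log2 fold change of 0.36 (adjusted p = 0.000274, SE 0.04). Il6st (ENSMUSG00000021756, chromosome 13, 112464070 to 112510086), the gp130 gene, had 170, 172 and 165 CPM in conditioned medium against 163, 157 and 152 CPM in untreated wells. Its groups did not overlap, but its log2 fold change of 0.10 (SE 0.04) did not pass (adjusted p = 0.118). It passed only with libraries scaled by the total count alone (log2 fold change 0.16, adjusted p = 0.0271).

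Il10rb (ENSMUSG00000022969, chromosome 16, 91406164 to 91425834), the gene of the shared second chain of the IL-10 receptor, fell. It had 162, 161 and 143 CPM in conditioned medium against 184, 187 and 183 CPM in untreated wells. The groups did not overlap, and the log2 fold change was -0.25 (adjusted p = 0.00729, SE 0.05). Il10ra (ENSMUSG00000032089, chromosome 9, 45253837 to 45269149), the gene of the chain that binds IL-10, had 375, 360 and 379 CPM in conditioned medium against 321, 337 and 375 CPM in untreated wells. The groups overlapped because untreated replicate 3 reached the conditioned-medium range. The log2 fold change was 0.11 (adjusted p = 0.218, SE 0.06). Without untreated replicate 3 it was 0.17 (adjusted p = 0.0248), without both libraries numbered 3 it was 0.16 (0.0157), and with libraries scaled by the total count alone it was 0.17 (0.0405). Il6ra shares 242 exon bases with a gene on the opposite strand, which had 12 counts over all libraries. Il10rb shares 569 exon bases with a gene on the same strand, which had 0 counts. These counts do not show whether reads over the shared bases were kept for Il6ra and Il10rb.

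Ratios between the chains of a receptor are given by well. The ratio of Il10ra to Il10rb levels per length was 2.52, 2.44 and 2.88 in conditioned medium against 1.90, 1.97 and 2.23 in untreated wells. The ratio of Il6ra to Il6st was 1.94, 1.88 and 2.04 in conditioned medium against 1.55, 1.61 and 1.75 in untreated wells. Both ratios were higher in all 3 conditioned-medium libraries, by 0.36 and 0.26 on the log2 scale. The ratio of Lifr, the LIF receptor gene, to Il6st was 0.230, 0.217 and 0.290 in conditioned medium against 0.0717, 0.0784 and 0.0796 in untreated wells, a difference of 1.67 on the log2 scale. Each of these 3 ratios, chosen after their genes' values were seen, gave p = 0.1 in a two-sided exact permutation test (adjusted p = 0.1 over the 3), which is the smallest p that 3 against 3 wells allow.

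**Figure D3:**
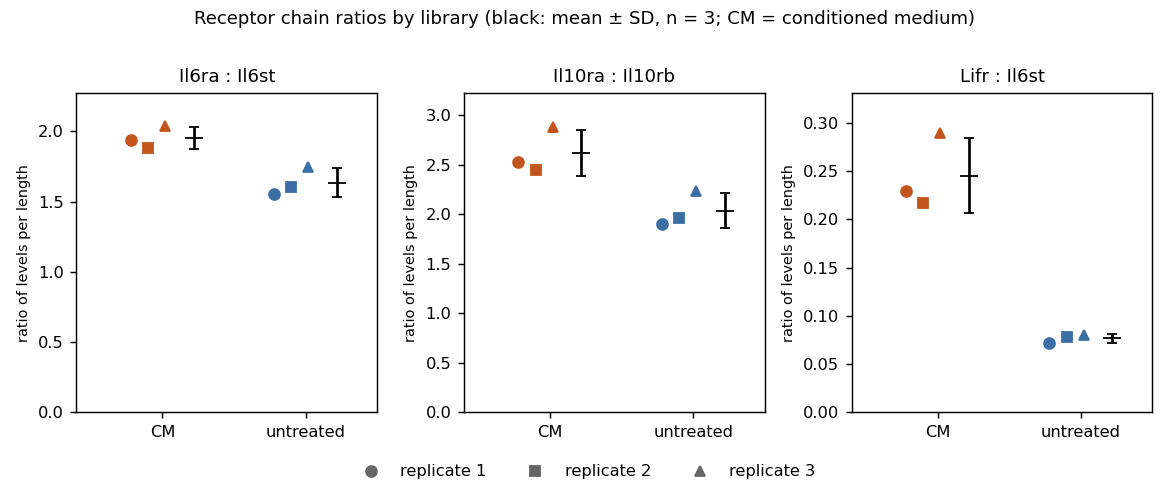
Ratios of levels per length between 2 receptor chain genes in each library, with conditioned medium (CM) left of untreated and black marks for the mean ± SD. In each panel the 3 conditioned-medium libraries lie above the 3 untreated ones, most widely for Lifr to Il6st.

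The remaining genes of the IL-6 family were mostly silent. Of 11 listed, 3 were tested, of which 1 rose and 1 fell. Lifr, the gp130 partner chain for LIF, rose 3.43-fold, with 37.9, 36.3 and 46.3 CPM in conditioned medium against 11.3, 11.97 and 11.8 CPM in untreated wells (log2 fold change 1.78 ± 0.10 SE, adjusted p = 2.82e-06). Il11ra1, the IL-11 receptor alpha chain gene, fell, with 30.02, 33.1 and 27.6 CPM in conditioned medium against 52.2, 54.5 and 48.0 CPM in untreated wells (log2 fold change -0.77 ± 0.07 SE, adjusted p = 8.24e-05). Osmr, the oncostatin M receptor gene, singled out after its values were seen, had 1.34, 0.657 and 0.447 CPM in conditioned medium against 0.460, 0.372 and 0.281 CPM in untreated wells. Its groups overlapped slightly, and its log2 fold change of 1.14 (SE 0.47) did not pass (adjusted p = 0.104), but passed with the replicate block (0.0400), which brought the count of genes that rose to 2, and also when conditioned-medium replicate 3 was left out (0.0424). Like Lif, it was highest in conditioned-medium replicate 1.

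Of 11 other IL-10 family genes, 5 were at 0 counts in every library, among them Il20 and Il22, which encode cytokines, and 2 were tested. Neither passed. Ifnlr1, the lambda interferon receptor gene whose product pairs with that of Il10rb, had a log2 fold change of 0.31 (adjusted p = 0.601, SE 0.38).

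Of 7 other IL-12 family genes, 6 were tested and 2 fell, both receptor genes. Il27ra, which encodes the IL-27 receptor alpha chain that signals with gp130, had 0.656, 1.38 and 0.723 CPM in conditioned medium against 2.68, 3.18 and 2.73 CPM in untreated wells (log2 fold change -1.63 ± 0.29 SE, adjusted p = 0.00258). Il12rb2, the signalling chain gene of the IL-12 receptor, had 2.49, 2.20 and 2.48 CPM in conditioned medium against 7.94, 7.10 and 7.62 CPM in untreated wells (log2 fold change -1.66 ± 0.13 SE, adjusted p = 2.34e-05). Il12rb2 shares 1519 exon bases with Serbp1 on the opposite strand, which had 33588 counts against its 767, so its counts are uncertain where strand was not kept. Il12rb1, the chain shared by the IL-12 and IL-23 receptors, did not pass (log2 fold change 0.35 ± 0.22 SE, adjusted p = 0.284).

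Of the other IL-12 family ligand genes, Il12a, Ebi3 and Il27 were tested and did not pass, and they are named after their values were seen. Il12a, which encodes the p35 subunit that completes IL-12, had 0.722, 0.985 and 0.482 CPM in conditioned medium against 0.794, 0.578 and 0.642 CPM in untreated wells (log2 fold change 0.12 ± 0.34 SE, adjusted p = 0.826). Its direction turned without conditioned-medium replicate 2. Ebi3, which encodes a subunit of IL-27, had 72.0, 81.9 and 83.6 CPM in conditioned medium against 68.7, 69.8 and 87.3 CPM in untreated wells (log2 fold change 0.07 ± 0.09 SE, adjusted p = 0.621). Il27, the gene of its p28 partner, had a log2 fold change of -0.30 (adjusted p = 0.453, SE 0.27). Per length, Ebi3 made up 95.3% to 96.6% of the summed level of the 5 ligand subunit genes Ebi3, Il27, Il12a, Il12b and Il23a in conditioned medium and 93.0% to 94.8% in untreated wells. Il12b made up 0.507% to 0.920% in conditioned medium and 1.46% to 2.45% in untreated wells. Most IL-12 family ligand transcript in these wells was thus counted for Ebi3. Ebi3 shares 270 exon bases with Gm16712 on the opposite strand, which had 541 counts against its 12631. Il27 shares 103 exon bases with Apobr on the opposite strand, which had 14510 counts against its 367. The counts of Il27 are therefore uncertain where strand was not kept.

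**Figure D4:**
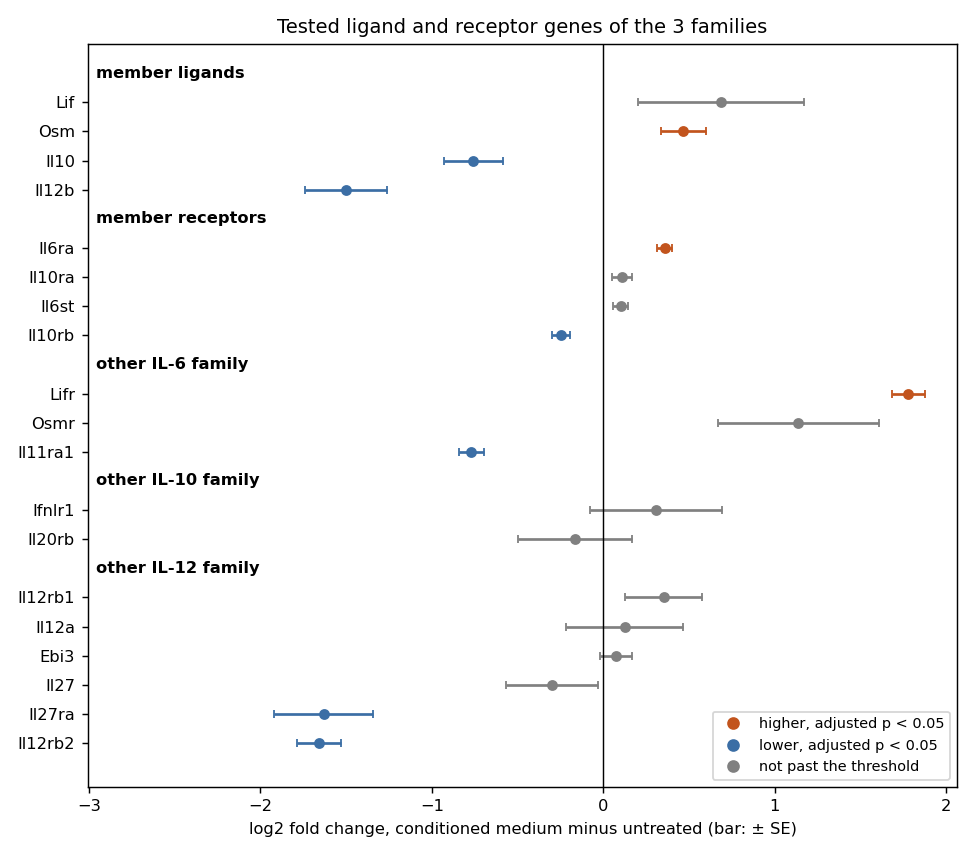
Log2 fold change, conditioned medium minus untreated, of the 8 tested genes and the other tested ligand and receptor genes of the 3 families, with bars of ± SE; orange passed as higher, blue passed as lower and grey did not pass. Lifr stands farthest to the right at 1.78, and Il12rb2, Il27ra and Il12b farthest to the left at -1.66, -1.63 and -1.499.

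Downstream of these receptors, 6 of 15 JAK-STAT signalling genes rose and 4 fell, with a median log2 fold change of 0.02. Over all tested genes 12.6% rose and 15.2% fell. Socs3, the inhibitor that STAT3 induces and that blocks gp130, rose 3.32-fold, with 50.5, 50.0 and 60.3 CPM in conditioned medium against 13.4, 15.1 and 19.8 CPM in untreated wells (adjusted p = 1.97e-05). Socs1, which restrains interferon receptors, fell, with 1.64, 1.90 and 3.10 CPM in conditioned medium against 3.64, 4.996 and 5.33 CPM in untreated wells (adjusted p = 0.0119). The adaptor gene Gab1, whose product binds activated gp130 complexes, rose with a log2 fold change of 1.22 (adjusted p = 1.77e-05, SE 0.09). Stat4 rose to 4.91 ± 0.851 CPM in conditioned medium, against 2.08 ± 0.321 CPM in untreated wells (SD, n = 3 each, adjusted p = 0.00113). It shares 1033 exon bases with Gm28177 on the same strand, which had 15 counts against its 595. Stat3, singled out after its values were seen like Jak1 and Ptpn6, averaged 213 ± 2.38 CPM in conditioned medium and 169 ± 13.1 CPM in untreated wells (adjusted p = 0.00213). Jak1, a kinase of gp130 and of the IL-10 receptor, had a log2 fold change of 0.21 (adjusted p = 0.00315), and Ptpn6, the SHP-1 phosphatase gene, one of -0.60 (adjusted p = 0.000103). Jak2, another Janus kinase gene, went the other way from Jak1, with a log2 fold change of -0.31 (adjusted p = 0.00155, SE 0.05). It too was named after its values were seen.

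Of 13 genes that STAT3-activating cytokines are known to induce, 6 rose and 2 fell, with a median log2 fold change of 0.31. The shares over all tested genes were 12.6% higher and 15.2% lower. Beside Socs3, Nfil3, a repressor gene that IL-10 induces, rose to 34.4 ± 1.09 CPM in conditioned medium, against 15.7 ± 2.11 CPM in untreated wells (adjusted p = 2.57e-05). Il4ra, the IL-4 receptor alpha chain gene, rose to 245 ± 6.02 CPM in conditioned medium, against 145 ± 5.23 CPM in untreated wells (adjusted p = 4.56e-06). Cebpd, an acute-phase transcription factor gene, had 85.2, 93.2 and 127 CPM in conditioned medium against 55.3, 59.3 and 77.4 CPM in untreated wells (adjusted p = 0.0121). It no longer passed when untreated replicate 1 (adjusted p = 0.0508) or untreated replicate 2 (0.0574) was left out, and it shares 562 exon bases with Spidr on the opposite strand. The genes that fell, Etv3 and Mcl1, named after their values were seen, had a log2 fold change of -0.25 each. The same wells thus held less Il10, Etv3 and Mcl1 transcript and more transcript of Nfil3, Il4ra and Socs3. Of the 13 genes, 5 did not pass, and STAT3 activity was not measured.

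Of 16 genes known to control transcription or mRNA stability of Il6, Il10 and Il12b, 2 rose and 5 fell, with a median log2 fold change of -0.08. Among all tested genes 12.6% rose and 15.2% fell, so the number that rose is near the general share. Bhlhe40, a repressor of Il10 in the mouse, fell, with 27.3, 28.7 and 22.0 CPM in conditioned medium against 71.4, 69.7 and 57.1 CPM in untreated wells (log2 fold change -1.34 ± 0.11 SE, adjusted p = 3.13e-05). Atf3, a repressor of Il6 and Il12b, fell, with 113, 116 and 102 CPM in conditioned medium against 233, 237 and 212 CPM in untreated wells (adjusted p = 5.16e-06). Nfkbiz, whose product is needed for Il6 and Il12b induction, fell to 52.3 ± 5.33 CPM in conditioned medium, against 79.2 ± 7.69 CPM in untreated wells (adjusted p = 0.000829). Irf5, an activator of Il12b, had a log2 fold change of -0.47 (adjusted p = 0.000186, SE 0.05), and Maf, an activator of Il10, one of 0.42 (adjusted p = 0.000228, SE 0.05), both named after their values were seen, and Irf5 shares 411 exon bases with Tnpo3 on the opposite strand. Arid5a, which stabilises Il6 mRNA, rose with a log2 fold change of 0.61 (adjusted p = 0.000140, SE 0.07). Rel, an NF-kB subunit gene named after its values were seen, fell slightly (log2 fold change -0.16, adjusted p = 0.0258, SE 0.04). The number of regulators that fell was 4 by DESeq2 and with no low-count filter. The remaining 9 regulators did not pass.

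**Figure D5:**
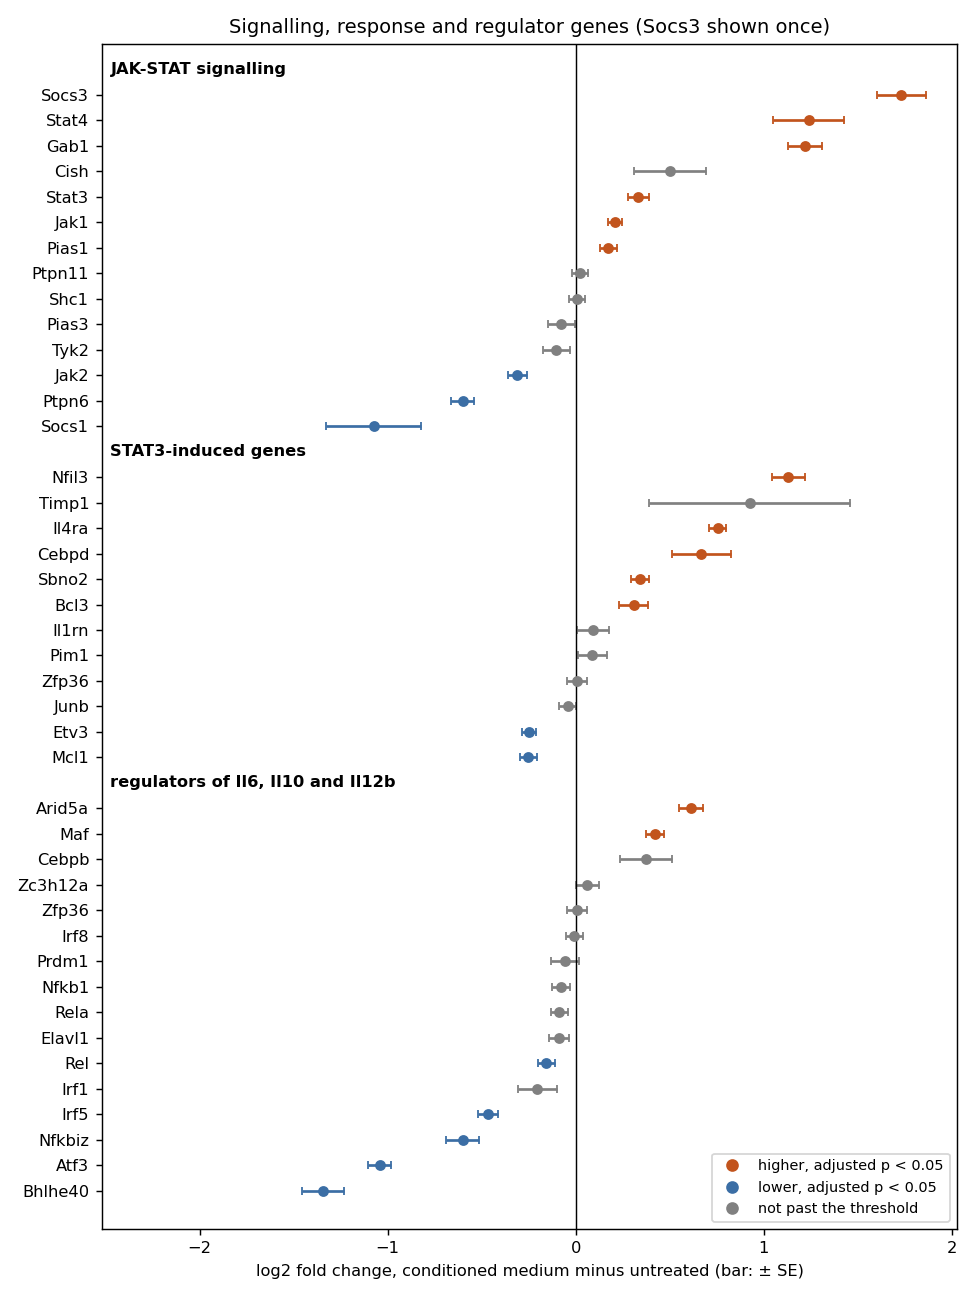
Log2 fold change, conditioned medium minus untreated, of JAK-STAT signalling genes (1 is not drawn), genes induced through STAT3 and regulators of Il6, Il10 and Il12b, with bars of ± SE; orange passed as higher, blue passed as lower and grey did not pass. Socs3 stands farthest to the right at 1.73 and Bhlhe40 farthest to the left at -1.34.

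The IL-6 receptor chain is also released from the cell surface by proteases. Of 3 genes of that step, 1 fell, and 2 with the replicate block. Adam17, a sheddase gene, had 411, 408 and 468 CPM in conditioned medium against 478, 486 and 551 CPM in untreated wells, and the groups did not overlap (log2 fold change -0.24 ± 0.07 SE, adjusted p = 0.0363). It no longer passed when conditioned-medium replicate 1 (adjusted p = 0.121), conditioned-medium replicate 2 (0.0989), untreated replicate 2 (0.0655) or untreated replicate 3 (0.0909) was left out, or with libraries scaled by the total count alone (0.0731). Adam17 shares 311 exon bases with Iah1 on the opposite strand. The other genes of that step, Adam10 and Rhbdf2, named after their values were seen, did not pass in the main test. Adam10, another sheddase gene, had a log2 fold change of 0.02 (adjusted p = 0.705), and Rhbdf2 one of -0.13 (adjusted p = 0.132).

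Markers of T and NK cells and of epithelium were scarce in both groups. The summed level of 6 T and NK cell markers was 0.459 to 0.755 CPM in conditioned medium and 0.842 to 1.61 CPM in untreated wells, and 1 of them was tested, Klrb1c, which did not pass (adjusted p = 0.0860) and passed with the replicate block or when conditioned-medium replicate 2 was left out. Carryover of LL-2 cells was looked at through 5 epithelial markers, which summed to 0.585 to 1.41 CPM in conditioned medium and 0.794 to 1.20 CPM in untreated wells. LL-2 cells may lack these markers.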

How the data were processed

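Messenger RNA was measured in 6 libraries, each placed in its group by its title. The authors deposited 1 table of whole-number gene counts. The tools are HISAT2 for alignment and featureCounts for counting, on GRCm38, per the submitters' processing notes; versions, strand setting, annotation release and treatment of multiply mapped reads were not given in the sources used here. Gene lengths and coordinates are the table's own. Symbols were matched by Ensembl identifier to GENCODE release M21 for 55154 of 55421 genes.

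Genes were filtered with filterByExpr, scaled by TMM and compared with edgeR 4.0.16 (R 4.3.3) with group as the only term. SE were derived from the F statistic. The script was tested on simulated data. Alternatives were RLE or total-count scaling, DESeq2 1.42.0, limma-voom (limma 3.58.1), no filter, a mean of at least 1 CPM, the replicate number as a block, equal depth, and leaving out each library or both numbered 3. The replicate numbers come from the labels. Deviations from the group means over 13853 genes correlated at 0.328, 0.161 and 0.309 between same-numbered wells, so the numbers were taken as possible pairs. Only the replicate block uses them. The main test, the permutation test of the ratios and the fits without 1 library treat the wells as unpaired. No label gives the numbers a meaning, so whether the wells are paired is not known. No label ties the wells to separate animals or cultures, so the p-values cover only well-to-well spread, which may be technical.

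The genes, lists and tests were chosen with earlier results of these data known. Named genes were the 10 family genes and, in each other list, up to 4 members past the threshold with the largest change, or the smallest p where none passed, and defining macrophage markers; lists of other cell types are mostly summarised. The values of 1 signalling gene are not reported here.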

Additional observations from a re-analysis of the deposited data

How the results depend on the processing

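The fall of Il10, Il10rb and Il12b and the rise of Il6ra kept their direction and call under all alternatives run, and the 3 genes lower stayed 3. The number of genes higher, 2 with all libraries, was 4 with libraries scaled by the total count alone, where Il6st (log2 fold change 0.16) and Il10ra (0.17) were added, and 1 to 2 when 1 library was left out, Osm being the gene lost (log2 fold change 0.37 to 0.58 over these). Without untreated replicate 3 Osm was lost and Il10ra gained, so the count hid an exchange. Il10ra also passed without both libraries numbered 3 (0.16), and it ranged from 0.058 to 0.17 when 1 library was left out. Over all genes, changes beyond 1.5-fold were called for 483 genes, 735 with the replicate block and 298 to 525 without 1 library. Among the 8 tested family genes that count was 1, 0 with libraries thinned to equal depth (adjusted p = 0.0559 for Il12b) and 0 to 1 without 1 library. The replicate block called 5023 genes in all, against 3861, and changed no call of the 10 genes; it gave 7 higher genes, against 6, among the STAT3-induced genes, 3 higher and 6 lower, against 2 and 5, among the regulators, and 3 lower, against 2, among the dendritic cell markers. Its other changes stand beside the genes. Il12a reversed to -0.16 without conditioned-medium replicate 2 and ranged up to 0.34 without 1 library. Calls of Osmr, Cebpd and Adam17 also changed, as given beside their values. Lif was not tested at a mean of at least 1 CPM. The cause of these changes was not tested, beyond there being fewer libraries or reads. Depth limits Il6 and Il23a, with 6 or fewer counts per group.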
